A study of Mus musculus with 12 samples.

Results

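The genes described here are 10 members of the Hippo pathway and its output in H9c2 cells: the coactivator genes Yap1 and Wwtr1, the transcription factor genes Tead1, Tead2 and Tead4, the kinase genes Lats1 and Lats2, the angiomotin genes Amotl1 and Amotl2, and the target gene Ankrd1. They were matched by gene symbol. The 10 symbols matched 11 of the 54345 gene rows of the table, because Lats2 had 2 rows, and 9 of the 11 rows had reads in any library.

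The Hippo pathway is a kinase cascade in which the MST kinases, with the scaffold SAV1, activate the LATS kinases and their MOB1 cofactors. Active LATS phosphorylates YAP and its paralogue TAZ, the product of Wwtr1, and holds both in the cytoplasm. When LATS is inactive, YAP and TAZ enter the nucleus and bind TEAD proteins, which carry the DNA-binding domain. Ankrd1, Amotl2, Lats2, Ccn1 and Ccn2 are textbook targets of that complex, and Lats2 and the angiomotins in turn restrain YAP. In the heart the pathway limits cardiomyocyte proliferation, and Ankrd1 encodes a stress-responsive ankyrin repeat protein of muscle.

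Poly(A) RNA was sequenced from wild-type H9c2 cells, a line derived from embryonic heart and labelled as myoblast, after 6 h in culture under 4 conditions with 3 libraries each. The Unt group was untreated. The DOX group received doxorubicin, an anthracycline that poisons topoisomerase II, and the D_DXZ group received doxorubicin together with dexrazoxane, an iron chelator given as a cardioprotectant. The D_MgHCF group received doxorubicin together with magnesium hexacyanoferrate nanocatalysts, which take up ferrous iron. Both combination groups carry doxorubicin, and no group received dexrazoxane or the nanocatalysts alone, so the comparisons with Unt combine both agents. The comparisons share their libraries (DOX with Unt and with each combination, for example) and are not independent of each other. The labels do not say that the libraries of a group came from separate cultures, so the p-values measure the spread between these libraries, which may be technical.

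Between 16626514 and 19365119 reads per library fell on genes. Replicates of Unt, DOX and D_DXZ correlated at a Pearson r of at least 0.989 on log2(FPKM + 1), and those of D_MgHCF less closely, down to 0.942. FPKM (fragments per kilobase of gene, scaled to depth) were given by the authors after a further scaling of the libraries, whose factor relative to the read total lay between 1.32 and 1.38 for Unt, 0.647 and 0.784 for DOX, 0.747 and 0.892 for D_DXZ, and 1.26 and 1.43 for D_MgHCF. Those factors move with the groups. Directions that depend on them are given for the changes that passed the significance threshold. The study describes H9c2 as a rat line, while the labels give mouse as the organism and the table lists mouse genes. The defining skeletal myoblast markers were nearly absent: of Myod1, Myf5, Myog, Des, Cdh15 and Pax7 only Des reached a mean of 1 FPKM in Unt, and 4 of the 6 were listed at 0 there. Of 7 cardiomyocyte markers only Gata4 reached 1 FPKM. Of 4 fibroblast markers Col1a1 and Col1a2 were above 1 FPKM in every group, Thy1 was listed at 0 in Unt, and their summed FPKM lay between 45.1 and 51.1 for Unt, 97.3 and 121.9 for DOX, 76.6 and 103.2 for D_DXZ, and 22.0 and 39.6 for D_MgHCF. The part of the cardiomyocyte and fibroblast markers in the results below was not tested. Of the markers of other cell types, those of endothelium and epithelium stayed below 1 FPKM in sum, and of the leukocyte markers Cd68 but not Ptprc was above 1 FPKM.

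The letters bound by TEAD proteins are GGAATG, and the windows before the starts of the 2 members that fell most and of Ccn1 (listed in the table under its older symbol Cyr61) are shown because they hold those letters. The 250 bases upstream of the RefSeq start are given 5' to 3' on the gene's strand in GRCm38.p6, with GGAATG or its complement CATTCC in capitals, from chr19:36119845-36120094 (minus strand) for Ankrd1, chr9:102717554-102717803 (plus strand) for Amotl2 and chr3:145649986-145650235 (minus strand) for Ccn1.
Ankrd1: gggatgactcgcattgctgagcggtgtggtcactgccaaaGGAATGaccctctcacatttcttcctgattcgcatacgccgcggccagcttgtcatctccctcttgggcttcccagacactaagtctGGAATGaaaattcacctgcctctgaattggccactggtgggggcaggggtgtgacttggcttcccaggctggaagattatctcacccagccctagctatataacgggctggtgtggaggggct
Amotl2: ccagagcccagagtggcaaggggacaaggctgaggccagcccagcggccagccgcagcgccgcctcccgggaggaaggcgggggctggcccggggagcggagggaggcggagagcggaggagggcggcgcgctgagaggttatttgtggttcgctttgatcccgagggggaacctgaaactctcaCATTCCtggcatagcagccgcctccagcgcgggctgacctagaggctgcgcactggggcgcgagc
Ccn1: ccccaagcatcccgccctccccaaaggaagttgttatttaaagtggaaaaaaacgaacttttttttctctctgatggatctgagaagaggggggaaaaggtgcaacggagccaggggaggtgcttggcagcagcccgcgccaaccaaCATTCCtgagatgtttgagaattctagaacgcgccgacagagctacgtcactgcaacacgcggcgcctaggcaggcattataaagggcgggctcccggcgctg
The first letters of the matches lie 210 and 123 bases before the start of Ankrd1, 65 before that of Amotl2 and 103 before that of Ccn1. Of the 10 members, 8 had an entry in the RefSeq promoter table, and in windows of 300 bases (250 before to 50 after each start) 5 of the 8 held the TEAD letters on either strand: Yap1, Wwtr1, Lats2, Amotl2 and Ankrd1. Tead2, Amotl1 and Lats1 held none. Over all 32851 windows of that length 14.7% held the letters, and 16.6% of 27025 genes had a window with them. The AP-1 letters TGANTCA, often found near TEAD sites in enhancers, were in none of the 8 members' windows and in 7.81% of all windows. A match is a description of the letters only.

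Doxorubicin was followed by a deep fall of the target genes Amotl2 and Ankrd1, falls of Tead1 and Tead4, and a rise of Tead2. Yap1 itself lay between 12.5 and 16.3 FPKM in every library. Of the 9 members tested, 2 were higher and 4 lower in DOX than in Unt at a limma adjusted p under 0.05, against 38.4% of all 25044 genes tested called in either direction, 18.6% higher and 19.9% lower. The libraries of 8 of the 9 did not overlap between DOX and Unt, as was so for 51.8% of all genes. The median log2 fold change was −0.19 over the members and 0 over all genes tested. Fold changes are on the log2(FPKM + 1) scale, which understates the change of low genes. All 9 members tested averaged at least 1 FPKM, against 11515 of all 25044 genes tested. The shares and medians over all genes, here and below, therefore include many low genes. The members and the gene lists used below were chosen with earlier results of these data known, so their counts are descriptions only. In these bulk libraries fewer cells of a type and less RNA per cell cannot be told apart.

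**Figure D1:**
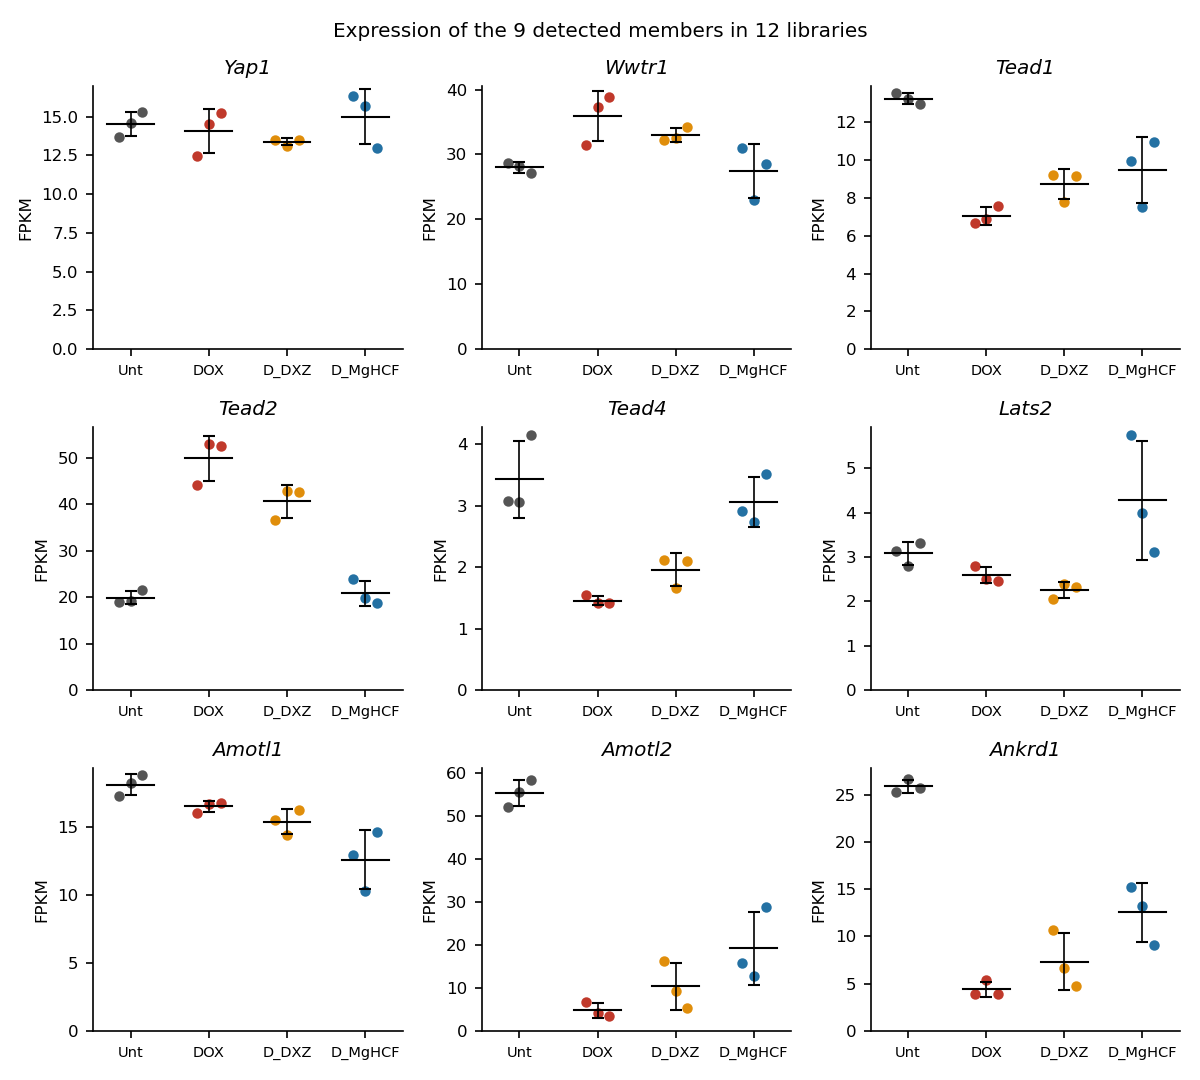
FPKM (linear axis from 0) of the 9 members with reads in each of the 12 libraries; points are libraries, horizontal lines the group means and bars the SD (n = 3). Amotl2 and Ankrd1 lie at 52.2 to 58.3 and 25.3 to 26.6 FPKM in Unt and at most at 6.71 and 5.34 FPKM in DOX, while Yap1 lies between 12.5 and 16.3 FPKM throughout.

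Yap1 encodes the coactivator that LATS restrains (GRCm38, chr9:7931999-8004596, minus strand). Its levels were 13.7, 14.6 and 15.3 FPKM in Unt, 12.5, 14.5 and 15.2 FPKM in DOX, 13.5, 13.1 and 13.5 FPKM in D_DXZ, and 16.3, 15.7 and 13.0 FPKM in D_MgHCF. The Unt, DOX and D_MgHCF values overlapped. The difference of DOX from Unt was −0.05 on the log2 scale, with a 95% confidence interval of −0.27 to 0.18 and a limma adjusted p of 0.837. None of the 6 pairwise comparisons called Yap1 in the deposited scaling with all libraries in (without D_MgHCF replicate 3 it was higher in D_MgHCF than in D_DXZ by 0.24, limma adjusted p = 0.0367), and that scaling sets the zero: with library totals the same DOX difference was −1.0, where the median over 11515 genes of at least 1 FPKM was −0.89. In D_MgHCF against DOX Yap1 was called higher under quantile normalization (0.37, limma adjusted p = 0.0286), where the median gene was at −0.06. It was also called higher there under TPM (1.27) and library totals (1.06), with the median gene at 0.99 and 0.85. Against D_DXZ the D_MgHCF difference was called under TPM (1.17) and library totals (0.94), with medians of 0.82 and 0.63.

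Wwtr1 encodes TAZ, which shares the TEAD-binding role of YAP (chr3:57455649-57575910, minus strand). It was at 28.7, 28.2 and 27.1 FPKM in Unt and at 31.5, 37.2 and 38.8 FPKM in DOX, so that every DOX library lay above every Unt library. It was at 32.2, 32.6 and 34.3 FPKM in D_DXZ and at 31.1, 22.9 and 28.5 FPKM in D_MgHCF. The rise in DOX was 1.28-fold (log2 fold change 0.34, SE 0.113, limma adjusted p = 0.0355), but it turned to a fall under TPM (−1.0), quantile normalization (−0.45) and library totals (−0.60). The call was also lost without any one of the Unt libraries or without DOX replicate 2 or 3 (adjusted p from 0.0695 to 0.131 in limma), without D_DXZ replicate 2 (adjusted p = 0.0514), with no filter on low genes (adjusted p = 0.0754), with the replicate number as a block (adjusted p = 0.0566) and in voom with median-ratio scaling (adjusted p = 0.0656). The ratio of Wwtr1 to Yap1, which a factor per library does not change (quantile normalization is no such factor and put Wwtr1 at −0.45 and Yap1 at −0.25 in DOX against Unt), was 1.93 ± 0.164 (SD, n = 3) in Unt, 2.55 ± 0.0211 in DOX, 2.47 ± 0.0764 in D_DXZ and 1.85 ± 0.370 in D_MgHCF. The DOX ratios, 2.52 to 2.56, lay above the Unt ratios of 1.77 to 2.10 and above the D_MgHCF ratios of 1.46 to 2.20. A two-sided exact permutation test gave p = 0.1 for each of these 2 comparisons, the smallest that 3 libraries against 3 allow, and 0.18 after adjustment over the 9 ratio tests made.

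In the deposited scaling Tead2 rose with doxorubicin while Tead1 and Tead4 fell. Tead2 (chr7:45215753-45233644, plus strand), the TEAD paralogue best known from the early embryo, was at 19.1, 19.1 and 21.5 FPKM in Unt and 44.2, 53.0 and 52.5 FPKM in DOX. It was at 36.5, 42.8 and 42.7 FPKM in D_DXZ and at 23.8, 19.9 and 18.7 FPKM in D_MgHCF. Every library of DOX and D_DXZ lay above every library of Unt and D_MgHCF. The rise in DOX was 2.51-fold (log2 fold change 1.28, SE 0.114, limma adjusted p = 1.70e-05), and under TPM, where the median gene fell by 1.18, Tead2 was at −0.04.

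Tead1 (chr7:112679318-112906807, plus strand), a paralogue expressed in heart and skeletal muscle, was at 13.6, 13.2 and 13.0 FPKM in Unt and 6.68, 6.86 and 7.56 FPKM in DOX. It was at 9.22, 7.80 and 9.14 FPKM in D_DXZ and at 9.95, 7.53 and 10.97 FPKM in D_MgHCF, so no treated library reached the Unt range. Tead1 was 1.89-fold lower in DOX than in Unt (log2 fold change −0.83, SE 0.123, limma adjusted p = 0.000311). Tead4 (chr6:128224288-128300823, minus strand), a paralogue known from muscle differentiation and from the trophectoderm, was the lowest of the TEAD genes, at 59 to 364 reads per library. It was at 3.07, 3.06 and 4.14 FPKM in Unt, 1.54, 1.41 and 1.42 FPKM in DOX, 2.12, 1.65 and 2.10 FPKM in D_DXZ and 2.91, 2.74 and 3.52 FPKM in D_MgHCF. Tead4 was 2.35-fold lower in DOX than in Unt (log2 fold change −0.84, SE 0.139, limma adjusted p = 0.000626), a call lost under quantile normalization (−0.38, adjusted p = 0.0725). Both Tead1 and Tead4 were lower in DOX than in Unt under each of the 5 scalings, of which deposited FPKM and voom with median-ratio scaling share their library factors.

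As a share of the summed FPKM of Tead1 to Tead4, which is the same under any library factor, Tead2 made up 42.2% ± 0.575 in Unt, 79.6% ± 3.27 in DOX, 73.3% ± 3.17 in D_DXZ and 44.2% ± 9.45 in D_MgHCF (SD, n = 3). Tead1 made up 28.2%, 11.3%, 15.8% and 19.7% in the same order. Tead3, the remaining paralogue and no member, made up 22.4%, 6.76%, 7.31% and 29.7%, and Tead4 7.23%, 2.34%, 3.55% and 6.39%. The Tead2 share in the 6 libraries of DOX and D_DXZ, 69.8% to 81.6%, did not overlap the 33.4% to 50.8% of the other libraries. In D_MgHCF replicate 3 the Tead2 share was lowest, at 33.4%, and the Tead3 share highest, at 40.7%. The ratio of Tead4 to Tead1 was 0.259 ± 0.0521 in Unt, 0.208 ± 0.0214 in DOX, 0.224 ± 0.0103 in D_DXZ and 0.326 ± 0.0360 in D_MgHCF. The Unt and DOX ranges of that ratio overlapped (exact permutation p = 0.2, adjusted p = 0.225). The D_MgHCF range, 0.293 to 0.364, lay above the DOX range of 0.188 to 0.230 (exact permutation p = 0.1, adjusted p = 0.18).

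**Figure D2:**
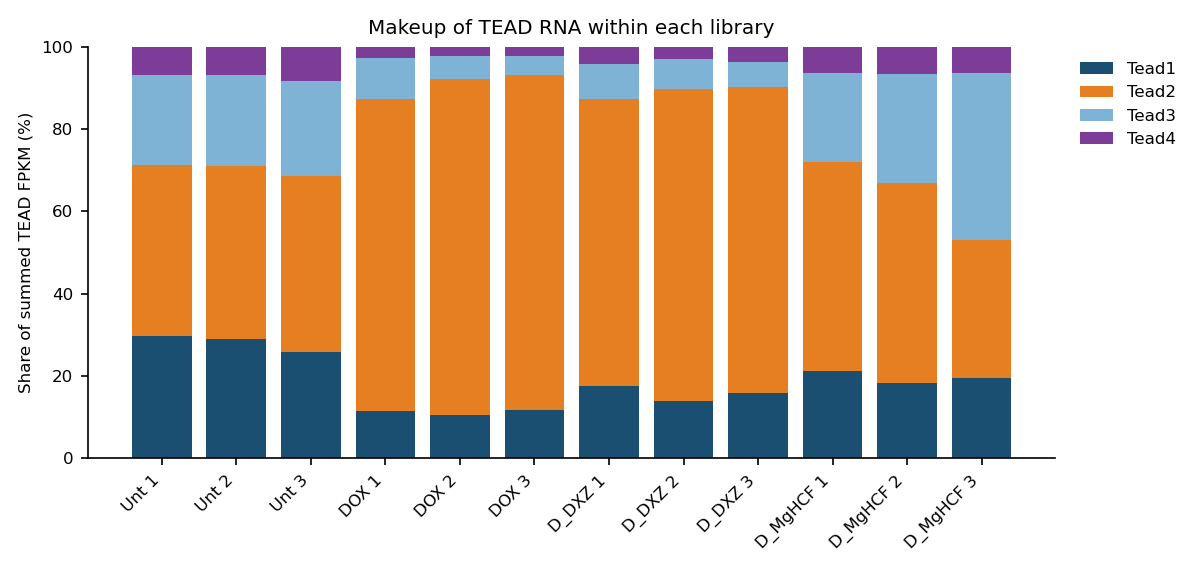
Share (%, linear axis) of the summed Tead1 to Tead4 FPKM taken by each gene in each of the 12 libraries; each bar is 1 library and adds up to the whole of that sum. Tead2 takes 41.7% to 42.8% in Unt and 75.9% to 81.6% in DOX.

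Lats1 and Lats2 encode the kinases that phosphorylate YAP and TAZ. Lats1 (chr10:7681214-7716460, plus strand) was listed at 0 with no read in all 12 libraries. A count of 0 allows up to 3 reads, which is 0.0162 to 0.0355 FPKM depending on the library, for counting error only. Since other broadly used genes of the table are also listed at 0, the value is given only as listed, and the planned ratio of Lats2 to Lats1 could not be formed. Lats2 (chr14:57689662-57758388, minus strand) was at 3.14, 2.80 and 3.32 FPKM in Unt, 2.80, 2.50 and 2.47 FPKM in DOX, 2.06, 2.39 and 2.33 FPKM in D_DXZ and 5.75, 4.00 and 3.11 FPKM in D_MgHCF. The highest DOX library, at 2.797 FPKM, lay just below the lowest Unt library, at 2.802 FPKM, and the difference of DOX from Unt was −0.19 (95% confidence interval −0.56 to 0.18, limma adjusted p = 0.479). That difference was 0.27 under quantile normalization (limma adjusted p = 0.302). It was −1.43 under TPM and −1.20 with library totals, both called, where the median gene was at −1.18 and −0.89. A second gene row named Lats2 (chr14:57642077-57746103, minus strand) was listed at 0 throughout. Its transcripts share up to 2956 bases at 100% identity with those of the first, and the split of reads between both rows is uncertain. A pseudogene on the opposite strand within Lats2, Gm20430, was listed at 1.51 to 6.25 FPKM, and the library kit does not mark strand, so reads of that overlap cannot be told apart.

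Amotl1 and Amotl2 encode angiomotin-like proteins that tether YAP at cell junctions, and Amotl2 is itself a target of YAP and TEAD. Amotl2 (chr9:102716672-102733418, plus strand) was at 52.2, 55.5 and 58.3 FPKM in Unt and at 6.71, 4.10 and 3.62 FPKM in DOX. It was at 16.3, 9.42 and 5.44 FPKM in D_DXZ and at 15.9, 12.8 and 28.9 FPKM in D_MgHCF. All treated libraries lay below all Unt libraries, D_DXZ overlapped DOX, and D_MgHCF lay above DOX. Amotl2 was 11.5-fold lower in DOX than in Unt (log2 fold change −3.31, SE 0.368, limma adjusted p = 5.16e-05), the largest fall among the 9 members tested. Amotl1 (chr9:14541966-14645056, minus strand) was at 17.3, 18.3 and 18.9 FPKM in Unt and 16.1, 16.7 and 16.8 FPKM in DOX. It was at 15.5, 14.4 and 16.3 FPKM in D_DXZ and at 12.9, 10.3 and 14.7 FPKM in D_MgHCF. Its difference between DOX and Unt was −0.13 (95% confidence interval −0.37 to 0.12, limma adjusted p = 0.465), although the groups did not overlap. Amotl1 was called lower in DOX under quantile normalization (−0.48, limma adjusted p = 0.00773). The same was so under TPM (−1.47) and library totals (−1.08), where the median gene fell as well. In D_DXZ against Unt it was also called lower under quantile normalization (−0.46, limma adjusted p = 0.0115).

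The pair of angiomotin-like genes thus moved apart. The ratio of Amotl2 to Amotl1 was 3.04 ± 0.0378 in Unt, 0.292 ± 0.109 in DOX, 0.679 ± 0.360 in D_DXZ and 1.48 ± 0.427 in D_MgHCF (SD, n = 3). The ranges of Unt, 3.01 to 3.08, DOX, 0.215 to 0.417, and D_MgHCF, 1.23 to 1.97, did not overlap (exact permutation p = 0.1 for DOX against Unt and for D_MgHCF against DOX, adjusted p = 0.18). D_DXZ overlapped DOX in that ratio (exact permutation p = 0.2, adjusted p = 0.225).

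Ankrd1 (chr19:36111965-36119844, minus strand) was at 25.3, 26.6 and 25.7 FPKM in Unt and at 3.88, 5.34 and 3.97 FPKM in DOX. It was at 10.7, 6.66 and 4.71 FPKM in D_DXZ and at 15.2, 13.2 and 9.12 FPKM in D_MgHCF. The order of the group means was Unt, D_MgHCF, D_DXZ and DOX, as for Amotl2, and D_DXZ overlapped both of its neighbours in that order. Ankrd1 was 5.89-fold lower in DOX than in Unt (log2 fold change −2.33, SE 0.248, limma adjusted p = 4.06e-05). The calls of Amotl2 and Ankrd1 in DOX against Unt held in all 11 other settings and in all 12 fits that left out 1 library, with log2 fold changes of −3.54 to −3.16 and −2.45 to −2.26 in the latter. The settings with unadjusted p or a log2 change of at least 1 reused the main fit and could not end these calls. Leaving out a D_DXZ or D_MgHCF library changed only the spread used for them. Over the 12 libraries the genes closest in pattern to Ankrd1 among 11516 genes of at least 1 FPKM were Uspl1 (Pearson r = 0.992), Fzd1 (0.990), Zbtb14 (0.985), Zkscan17 (0.984) and Ckap2l (0.983). Those closest to Yap1 were Nme7 (0.971), an unannotated gene model (0.901), Bcl2l13 (0.883), Antxr2 (0.882) and Wdr92 (0.872). The points of these correlations are 4 groups of 3 libraries with a shared scaling.

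Adding dexrazoxane to doxorubicin left no member called. Amotl2 averaged 10.4 ± 5.50 FPKM in D_DXZ against 4.81 ± 1.67 FPKM in DOX, and Ankrd1 7.35 ± 3.04 against 4.40 ± 0.820 FPKM. Tead2 averaged 40.7 ± 3.58 against 49.9 ± 4.95 FPKM, and its D_DXZ libraries all lay below its DOX libraries. Of the 9 members 0 were called by limma, as were 0% of all genes tested (voom gave 0 members as well), and 3 members had an unadjusted p under 0.05. The libraries of 4 members did not overlap, against 16.3% of all genes. The difference of D_DXZ from DOX was 0.89 on the log2 scale for Amotl2 (95% confidence interval 0.07 to 1.71), 0.58 for Ankrd1 (0.03 to 1.13) and −0.29 for Tead2 (−0.54 to −0.03), with adjusted p from 0.481 to 0.508 in limma. For the other 6 members tested the intervals ran from −0.51 to 0.57 at most. Against Unt, D_DXZ had 1 member higher (Tead2) and 4 lower (Tead1, Tead4, Amotl2 and Ankrd1), where 33.9% of all genes were called, 15.9% higher and 18.0% lower, and all 9 did not overlap (50.4% of all genes). The rise of Tead2 there, 2.04-fold, turned to −0.16 under TPM, and the Tead4 call was lost under quantile normalization (−0.20, limma adjusted p = 0.377). When D_DXZ and Unt were fitted without the other groups, 8 members were called. Without D_MgHCF replicate 1, Lats2 was called lower in D_DXZ than in Unt (limma adjusted p = 0.0480), and without D_MgHCF replicate 2, Amotl1 (0.0473).

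**Figure D3:**
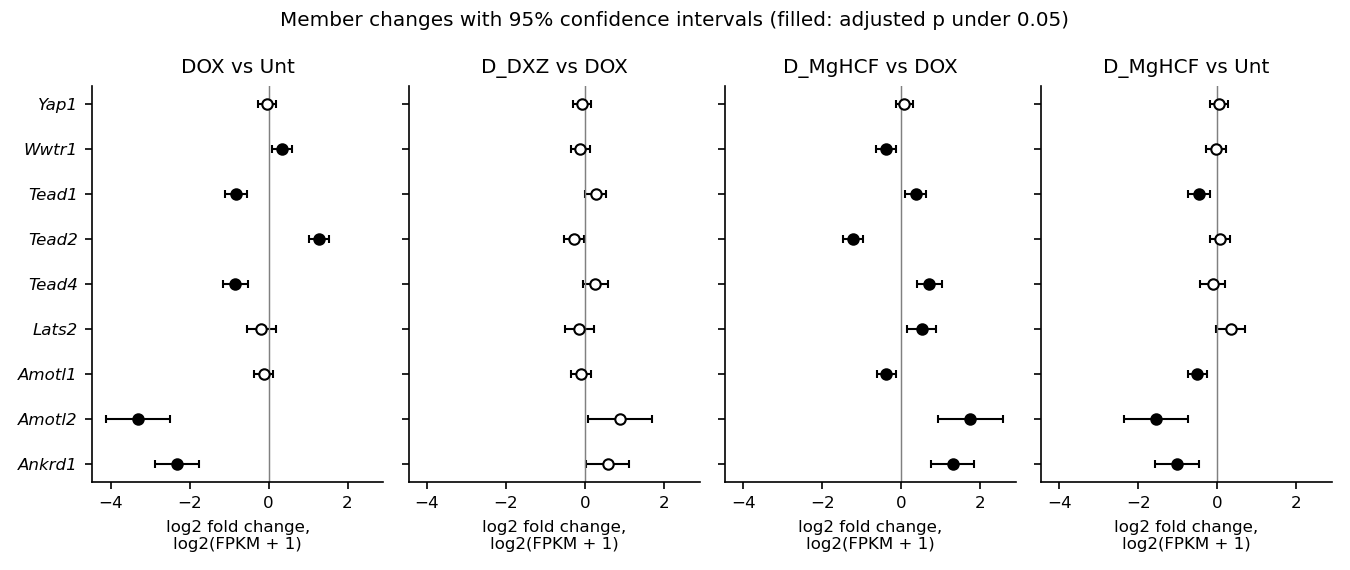
Log2 fold change of each member on log2(FPKM + 1) with its 95% confidence interval from limma, in 4 comparisons of 3 libraries each; filled circles have an adjusted p under 0.05. Amotl2 lies at −3.31 for DOX against Unt, 0.89 for D_DXZ against DOX and 1.75 for D_MgHCF against DOX, and under TPM the median gene alone shifts by −1.18 for DOX against Unt.

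With the nanocatalysts added to doxorubicin, the target genes Amotl2 and Ankrd1 were 3.99-fold and 2.85-fold higher than with doxorubicin alone, Tead4 was 2.10-fold higher, and Tead2 was 2.39-fold lower. Relative to DOX, 5 of the 9 members tested were higher in D_MgHCF and 3 lower, and the libraries of 7 did not overlap (53.2% of all genes), against 51.5% of all genes called in either direction, 31.4% higher and 20.1% lower. The median log2 fold change was 0.37 over the members and 0.07 over all genes tested. The log2 fold changes were 1.75 for Amotl2 (SE 0.368, limma adjusted p = 0.00257), 1.31 for Ankrd1 (SE 0.248, adjusted p = 0.00134), 0.72 for Tead4 (SE 0.139, adjusted p = 0.00152) and −1.22 for Tead2 (SE 0.114, adjusted p = 1.67e-05). The first 2 held in all 11 settings and 12 leave-outs, and Tead2 came to −0.04 under TPM (adjusted p = 0.603), where the median gene rose by 0.99. For Amotl2 and Ankrd1 the settings that reused the main fit could again not end the call. Leaving out a Unt or D_DXZ library changed only the spread. The Tead4 call was lost under quantile normalization (0.31, limma adjusted p = 0.135).

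The smaller changes in that comparison depended on single libraries or on the scaling. Lats2 was 1.65-fold higher (log2 fold change 0.53, limma adjusted p = 0.0218), with D_MgHCF replicate 1 highest. Its call was lost without that library (0.34, adjusted p = 0.0511) and without DOX replicate 2 (adjusted p = 0.0616) or 3 (adjusted p = 0.0642), under quantile normalization (0.18, adjusted p = 0.472) and with both groups fitted alone (adjusted p = 0.107). Tead1 was 1.35-fold higher (0.37, limma adjusted p = 0.0280) with overlapping libraries, and its call was lost without D_MgHCF replicate 1 or 3 or DOX replicate 1 or 2 (adjusted p from 0.070 to 0.0766), with no filter (adjusted p = 0.0566), with both groups fitted alone (adjusted p = 0.118) and under quantile normalization (adjusted p = 0.0710). Wwtr1 was 1.30-fold lower (−0.38, limma adjusted p = 0.0184), a call lost without DOX replicate 2 or 3 or D_MgHCF replicate 2 (adjusted p from 0.0582 to 0.0728) or with both groups fitted alone (adjusted p = 0.102), and a direction that turned under TPM (0.82), quantile normalization (0.38) and library totals (0.58). Amotl1 was 1.31-fold lower (−0.38, limma adjusted p = 0.0156), a direction that turned under TPM (0.79) and library totals (0.56) and a call lost under quantile normalization (−0.11, adjusted p = 0.489) and with both groups fitted alone (adjusted p = 0.0874). Without DOX replicate 2 the number of members called fell to 5. When D_MgHCF and DOX were fitted without the other groups, 4 members were called.

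Relative to Unt, D_MgHCF had 0 members higher and 4 lower, where 40.1% of all genes were called, 24.3% higher and 15.7% lower, and 4 did not overlap (48.9% of all genes). Amotl2 was 2.88-fold lower (log2 fold change −1.56, limma adjusted p = 0.00789), Ankrd1 2.07-fold lower (−1.02, adjusted p = 0.00915), Amotl1 1.44-fold lower (−0.50, adjusted p = 0.00528) and Tead1 1.40-fold lower (−0.46, adjusted p = 0.0146), the last not with both groups fitted alone (adjusted p = 0.0661). Tead2 and Tead4 were not called, at 0.06 (95% confidence interval −0.20 to 0.31) and −0.12 (−0.43 to 0.19). Lats2 was not called at 0.34, and was called higher without D_MgHCF replicate 3 (0.51, limma adjusted p = 0.0113). Between the combinations, 3 members were higher (Tead4, Lats2 and Ankrd1) and 1 lower (Tead2) in D_MgHCF than in D_DXZ, against 48.4% of all genes called, 29.4% higher and 19.0% lower, and 4 did not overlap (50.4% of all genes). Ankrd1 was 1.71-fold higher there (log2 fold change 0.73, limma adjusted p = 0.0323), a call lost without D_DXZ replicate 2 or 3 or D_MgHCF replicate 1 or 2 (adjusted p from 0.0824 to 0.119), with no filter (adjusted p = 0.0915) and with both groups fitted alone (adjusted p = 0.121). Lats2 was 1.90-fold higher (adjusted p = 0.00734 in limma) and Tead4 1.56-fold higher (adjusted p = 0.0207), the latter not without D_DXZ replicate 2 (adjusted p = 0.0793), which left 2 members called. Both calls were lost under quantile normalization (0.40 and 0.13, limma adjusted p = 0.106 and 0.558) and with both groups fitted alone (adjusted p = 0.0637 and 0.0948). Tead2 was 1.95-fold lower (adjusted p = 9.64e-05 in limma), but at 0.07 under TPM and −0.19 with library totals (adjusted p = 0.125). Amotl2 was not called at 0.86 (adjusted p = 0.0766), and was called without D_DXZ replicate 1 (1.22, adjusted p = 0.0178), with genes of at least 1 FPKM alone (adjusted p = 0.0393), under TPM (1.92, adjusted p = 0.00525) and quantile normalization (1.04, adjusted p = 0.0491), and in voom with either scaling (0.92 and 1.72, adjusted p = 0.0413 and 0.00277). Likewise Wwtr1 was called lower without D_MgHCF replicate 1 (−0.36, adjusted p = 0.0273) and Amotl1 without D_MgHCF replicate 3 (−0.39, adjusted p = 0.00604), both of the other sign with all libraries under TPM (0.76 and 0.72) and library totals (0.51 and 0.48) and Wwtr1 under quantile normalization (0.31).

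The scaling of the libraries set the zero of these comparisons. Over 11515 genes of at least 1 FPKM the median log2 fold change of DOX against Unt was 0.05 in the deposited scaling, −1.18 under TPM and −0.89 with library totals, and of all calls 48.3%, 9.80% and 19.4% were higher. For D_MgHCF against DOX the medians were −0.09, 0.99 and 0.85, and 61.0%, 88.9% and 84.3% of calls were higher (48.5% under quantile normalization). Measured from that median, Amotl2 in DOX lay between −3.82 and −3.36 under the 5 scalings, Ankrd1 between −2.63 and −2.38, Tead1 between −1.02 and −0.84, Tead4 between −1.28 and −0.41 and Tead2 between 0.52 and 1.26. Yap1 lay between −0.28 and −0.09. Wwtr1 lay between 0.17 and 0.29 in 4 of them and at −0.47 under quantile normalization. Deposited FPKM and voom with median-ratio scaling share their library factors, so they are not separate checks of the scaling.

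**Figure D4:**
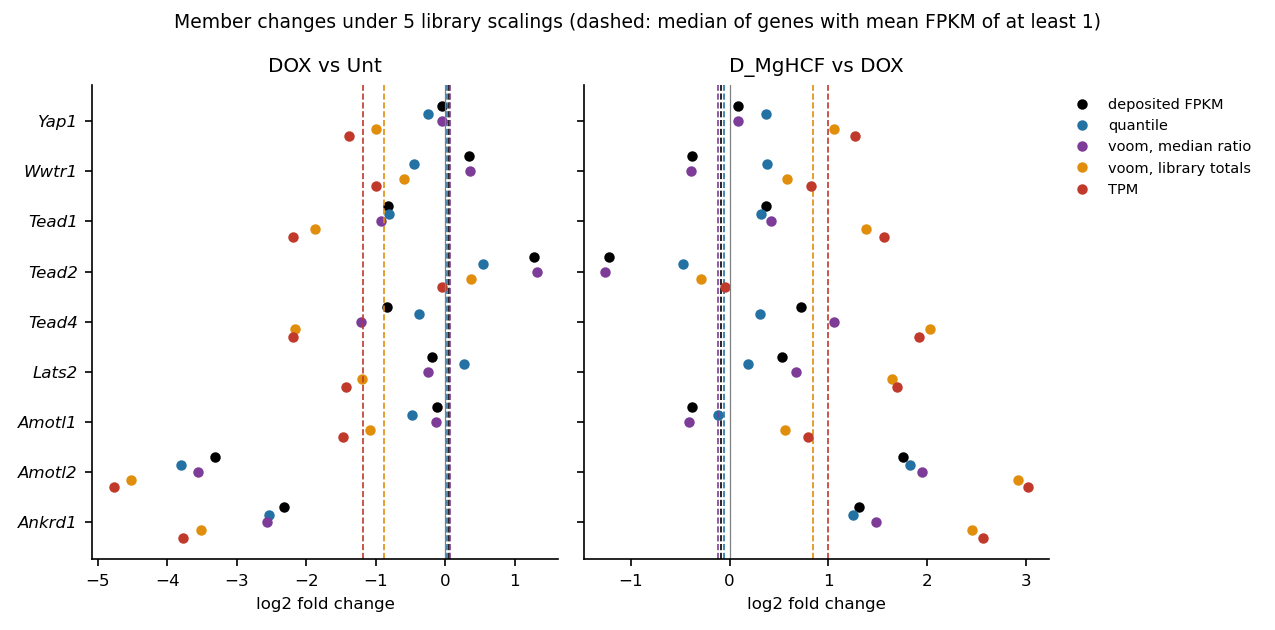
Log2 fold change (linear axis) of each member for DOX against Unt and D_MgHCF against DOX under 5 scalings of the libraries, shown by colour. Deposited FPKM and voom with median-ratio scaling share their library factors. Dashed lines are the median of 11515 genes under the scaling of that colour. Under TPM the median lies at −1.18 and 0.99, and Wwtr1 changes sign, while Amotl2 and Ankrd1 keep their side of 0 in both panels.

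The other regulators of the pathway, a list of 39 genes of which 37 were tested, held 6 genes that were higher and 22 that were lower in DOX than in Unt, where 18.6% of all genes were called higher and 19.9% lower. The median log2 fold change was −0.55, and 0 over all genes tested. The kinase gene Stk4, which encodes an MST kinase, fell from 10.8 ± 0.392 to 6.36 ± 1.52 FPKM (−0.70, limma adjusted p = 0.00184) and was at 19.2 ± 2.05 FPKM in D_MgHCF, above every Unt library. Stk3, the other MST gene, went from 6.42 ± 0.628 to 5.80 ± 1.21 FPKM (95% confidence interval −0.60 to 0.33), and Sav1 from 8.18 ± 0.0172 to 7.67 ± 0.386 FPKM, neither of them called. Nf2, which encodes the upstream activator merlin, was at 21.7 ± 0.853 FPKM in Unt and 26.6 ± 2.77 FPKM in DOX (0.28, limma adjusted p = 0.114), a difference of the other sign under TPM (−1.06) and library totals (−0.66).

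Ppp2r1a, the gene of a scaffold subunit of the phosphatase PP2A, rose 3.66-fold in DOX, from 85.1 ± 8.19 to 312 ± 39.0 FPKM, a call lost under quantile normalization (0.28, limma adjusted p = 0.106). The striatin gene Strn fell 3.99-fold. Map4k3, a kinase that can activate LATS, fell 3.83-fold, and Ajuba, whose LIM protein binds and restrains LATS, fell 4.72-fold, from 33.3 ± 2.74 to 7.05 ± 2.40 FPKM. The limma adjusted p was 2.99e-05 for Ppp2r1a, 0.000100 for Strn, 4.80e-05 for Map4k3 and 4.33e-05 for Ajuba. The LATS cofactor gene Mob1a was 1.97-fold and Amot, the founding angiomotin, 1.67-fold higher in DOX, both directions that turned under TPM (−0.40 and −0.61), and for Mob1a under quantile normalization (−0.33) and for Amot under library totals (−0.21) as well. The Amot call was lost without DOX replicate 3 (limma adjusted p = 0.0516). Tead3 fell 2.54-fold (10.6 ± 0.908 to 4.15 ± 1.49 FPKM, limma adjusted p = 0.00547), and Vgll4, whose product competes with YAP for TEAD, 2.74-fold (4.87 ± 0.369 to 1.77 ± 0.561 FPKM, adjusted p = 0.000802).

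In D_MgHCF 17 of the 37 regulators were higher and 10 lower than in DOX, against 31.4% and 20.1% of all genes, with a median of 0.14 (0.07 over all genes tested). Ajuba was 3.90-fold higher and at 27.5 ± 6.89 FPKM, Vgll4 4.22-fold higher and at 7.48 ± 2.03 FPKM, the TAO kinase gene Taok3 5.28-fold higher and at 5.30 ± 1.41 FPKM, and Tead3 3.52-fold higher and at 14.6 ± 7.11 FPKM. Ppp2r1a was 5.32-fold lower and at 58.5 ± 15.8 FPKM, and the polarity gene Scrib 2.90-fold lower (not called under TPM, −0.31, limma adjusted p = 0.153). Mob1a was 2.20-fold lower, but at 0.09 and 0.04 on the log2 scale under TPM and quantile normalization. Sav1 and Nf2 were lower by 0.65 and 0.78, both of the other sign under TPM (0.43 and 0.39) and library totals (0.20 and 0.15). Stk3 was not called, at −0.34, and was at 0.75 under TPM. Against Unt 4 regulators were higher and 16 lower (24.3% and 15.7% of all genes, median −0.29, and 0.05 over all genes tested), with Mob1b, a second LATS cofactor, 2.41-fold higher, Stk4 1.77-fold and Taok3 1.74-fold higher, and the striatin gene Strn4 2.77-fold, Ppp2ca 2.02-fold and Scrib 1.86-fold lower. The Taok3 call (limma adjusted p = 0.0378) was lost without any one of the Unt libraries, D_DXZ replicate 2 or 3, or D_MgHCF replicate 2 or 3 (adjusted p from 0.0504 to 0.104), and with another pseudocount, no filter, the replicate block, both groups alone or TPM (adjusted p from 0.0620 to 0.173). In D_DXZ against DOX 0 of the 37 were called by limma, and 5 had an unadjusted p under 0.05.

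Of 19 other target genes of YAP, TAZ and TEAD all were tested, and 5 were higher and 11 lower in DOX than in Unt, against 18.6% and 19.9% of all genes (median −0.61, and 0 over all genes tested). The targets did not move as one. Cyr61, the Ccn1 gene for a matricellular protein, was at 75.0 ± 4.28 FPKM in Unt, 5.11 ± 2.78 in DOX, 12.1 ± 6.67 in D_DXZ and 32.4 ± 6.72 in D_MgHCF (SD, n = 3). It fell 14.7-fold in DOX (−3.73, limma adjusted p = 2.79e-05) and its group means stood in the order seen for Amotl2 and Ankrd1. Gadd45a, a stress gene that p53 also induces, fell 34.0-fold, from 36.2 ± 2.19 to 1.07 ± 0.559 FPKM, and was at 6.16 ± 3.58 FPKM in D_DXZ and 6.21 ± 0.757 FPKM in D_MgHCF. The Arf GTPase activator gene Asap1 fell 5.46-fold.

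In the opposite direction, Ccdc80, which encodes a matrix protein, rose 3.45-fold to 150.4 ± 20.0 FPKM, Myof, for the membrane repair protein myoferlin, 2.97-fold to 79.6 ± 10.9 FPKM, and the receptor tyrosine kinase gene Axl 2.87-fold to 195.9 ± 21.8 FPKM. All 3 kept that direction under the other scalings, but the calls were lost under TPM (log2 0.41, 0.19 and 0.15, limma adjusted p = 0.0755, 0.312 and 0.312) and quantile normalization (0.46, 0.55 and 0.04, adjusted p = 0.213, 0.103 and 0.843). They were lower again in D_MgHCF than in DOX, by 3.84-fold, 6.54-fold and 2.87-fold, for Axl not under quantile normalization (−0.15, limma adjusted p = 0.279). Ctgf, the Ccn2 gene, was at 4.00 ± 0.626 FPKM in Unt and 2.27 ± 0.358 FPKM in DOX and was not called (limma adjusted p = 0.414), but was called lower with both groups fitted alone (adjusted p = 0.0163), under TPM (0.0158) and with library totals (0.0498). In D_MgHCF its libraries were at 8.74, 4.28 and 0.669 FPKM, and without replicate 3 of that group Ctgf was called higher than in DOX (1.14, adjusted p = 0.00202) and, with the narrower spread, lower in DOX than in Unt (adjusted p = 0.0375).

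In D_MgHCF 9 of the 19 targets were higher and 7 lower than in DOX, against 31.4% and 20.1% of all genes (median 0.45, and 0.07 over all genes tested), among them Cyr61 (6.34-fold higher), Gadd45a (5.83-fold) and the transcription factor gene Foxf2 (4.83-fold). Against Unt 2 were higher and 7 lower, against 24.3% and 15.7% of all genes (median −0.18, and 0.05 over all genes tested). Arhgef17 was 1.97-fold and Foxf2 1.67-fold higher than in Unt, and Gadd45a 5.83-fold, Asap1 3.20-fold and Cyr61 2.32-fold lower. The calls of Foxf2 and Cyr61 there were lost without any one of the Unt libraries, and also without D_MgHCF replicate 2 or 3 for Foxf2 (limma adjusted p from 0.0558 to 0.0896) and without D_MgHCF replicate 1 or 2 for Cyr61 (0.0588 to 0.0853). With no filter both calls were lost too (adjusted p = 0.0674 for Foxf2 and 0.0839 for Cyr61), as was that of Foxf2 with a pseudocount of 0.1 (0.0675) and under TPM (0.158). In D_DXZ against DOX 0 of the 19 were called by limma and 3 had an unadjusted p under 0.05. Chosen after its values were seen, Gadd45a was 5.78-fold higher in D_DXZ than in DOX without overlap of the libraries (log2 difference 1.69, 95% confidence interval 0.95 to 2.43, adjusted p = 0.197), where 16.3% of all genes did not overlap.

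**Figure D5:**
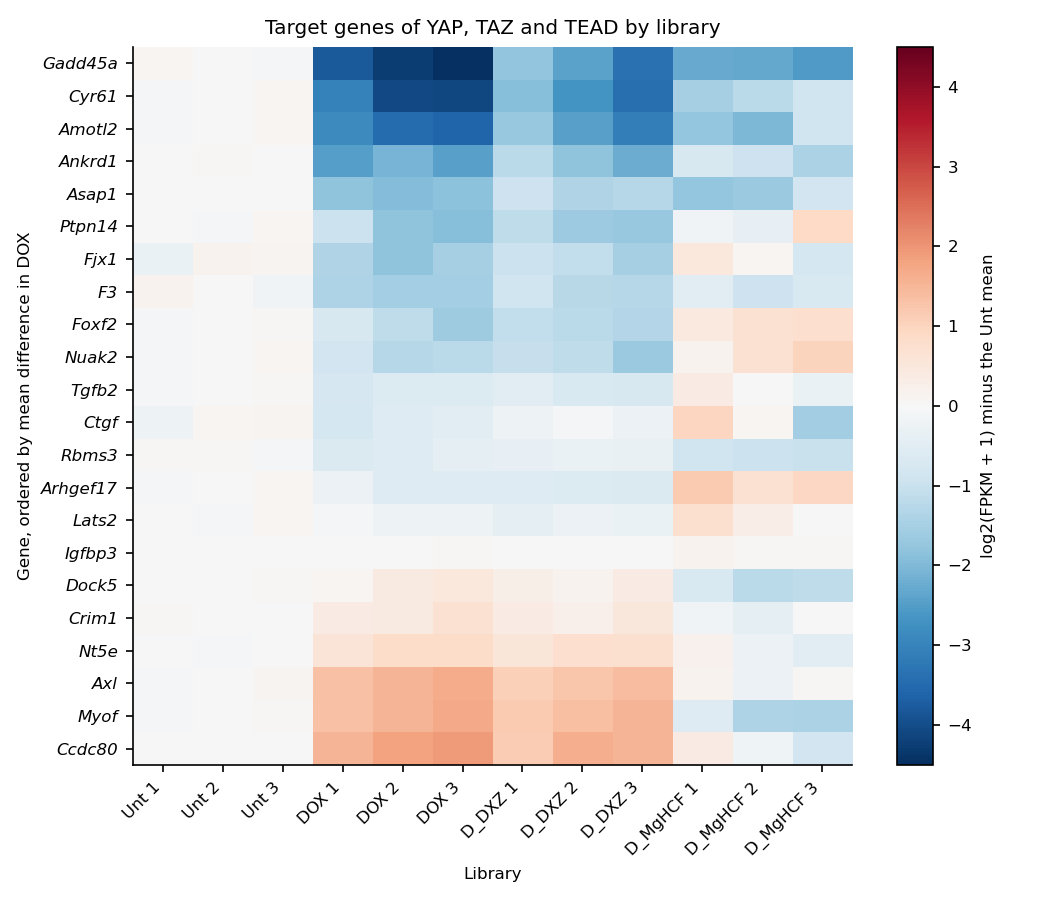
Difference of log2(FPKM + 1) from the Unt mean (colour scale) for the 19 other targets and for Ankrd1, Amotl2 and Lats2 (rows, ordered by the mean difference in DOX) in the 12 libraries (columns). Cyr61, Amotl2 and Ankrd1 are blue in every treated library and on average darkest in DOX, Ccdc80, Myof and Axl are red in DOX and D_DXZ, and Ctgf differs in sign between the D_MgHCF libraries.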

How the data were processed

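The deposited table held FPKM per gene and library, computed by the authors, on mouse Ensembl genes. Per the labels' processing notes HISAT2 2.0.5 and GRCm38 were used, and the counting program is not given in the sources used here. FPKM times gene length gave whole reads for 100% of values (tolerance 0.01), and the deposited scaling equalled a median-of-ratios scaling of those reads. The poly(A) libraries came from a kit that does not mark strand. Genes above 0 in at least 3 libraries (25044) were tested on log2(FPKM + 1) with limma 3.58.1 (R 4.3.3, mean-variance trend, 1 fit over the 4 groups, Benjamini-Hochberg adjustment, calls at an adjusted p under 0.05). The fit was also run on simulated reads. Their spread was the same in every group, unlike the wide spread of D_MgHCF. Voom ran on the recovered reads as an added alternative. Ratios were compared by two-sided exact permutation tests. Transcripts of GENCODE M21 were compared with BLAST 2.17.0 (at least 95% identity over 150 bases), and promoters came from RefSeq. The members and lists were chosen with earlier results of these data known. Named list genes were the 3 largest called rises and falls per list and comparison with a mean of at least 1 FPKM in the higher group, plus Stk3, Stk4, Sav1, Nf2, Tead3, Vgll4, Ccn1 and Ccn2. Alternatives were another pseudocount (0.1), filters, adjustment, scalings, groups, a replicate block and leaving out each library. Replicate numbers were not used as pairs in the main fit.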

Additional observations from a re-analysis of the deposited data

How the results depend on the processing

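The limits of these data are 3 libraries per group, a wide spread in D_MgHCF and a library scaling that differs between groups. A further limit is that the study describes a rat line while the values are on mouse genes. Ratios and shares between genes, and genes listed at 0, may depend on how the reads of each gene aligned, which was not tested. The promoter letters shown are those of mouse. Over the members' 6 comparisons, the 11 other settings left 499 values on their side of the threshold, moved 40 below it and 36 above it. They turned 19 that were called in the main fit, in the other setting or in both. The 499 include values called in neither fit, some of which changed sign. Lats2 in DOX against Unt, for example, was at −0.19 and under quantile normalization at 0.27. Leaving out 1 library kept 620, moved 21 below and 7 above, and turned none that was called. Some of these outcomes could not differ. Unadjusted p and a log2 change of at least 1 reused the main fit, so the first could end no call and the second add none. A library outside a comparison did not change its fold change when left out. Depth limits Tead4, at 59 reads in one library. Lats1 had no read in any library, and the cause of that was not tested. The planned count models were not run; voom on recovered reads, chosen after seeing the data, took their place. The ratio of Lats2 to Lats1 was not run. Unless a cause is named, the cause was not tested.

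Requiring a log2 change of at least 1 beside the adjusted p left, by construction, 3 members in DOX against Unt, 2 in D_DXZ against Unt, 2 in D_MgHCF against Unt, 3 in D_MgHCF against DOX and 0 in D_MgHCF against D_DXZ. The other regulators then numbered 12 in DOX against Unt, 3 in D_MgHCF against Unt and 10 in D_MgHCF against DOX, and the other targets 5 in D_MgHCF against Unt. With unadjusted p, 3 members, 5 regulators and 3 targets passed in D_DXZ against DOX, and 7 members in D_MgHCF against D_DXZ. Fitting 2 groups alone gave 8 members in D_DXZ against Unt, 4 in D_MgHCF against DOX and 1 in D_MgHCF against D_DXZ, and 13 regulators in D_MgHCF against Unt. TPM gave 8 members in each of D_DXZ against Unt and D_MgHCF against D_DXZ, voom with library totals 9 and 8, and quantile normalization 5 in D_MgHCF against DOX. Leaving out 1 library gave 5 to 8 members in D_MgHCF against DOX (5 without DOX replicate 2) and 2 to 6 in D_MgHCF against D_DXZ (2 without D_DXZ replicate 2). With FPKM + 1, the log2 ratio of Tead4 to Tead1 was −0.012 in DOX against Unt, −0.0078 in D_DXZ against DOX, where it turned, and 0.35 in D_MgHCF against DOX.

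Directions of values called in the main fit or under the other scaling turned under 3 scalings. TPM, quantile normalization and voom with library totals gave Wwtr1 −1.0, −0.45 and −0.60 in DOX against Unt, −0.94, −0.38 and −0.52 in D_DXZ against Unt, 0.82, 0.38 and 0.58 in D_MgHCF against DOX, and 0.76, 0.31 and 0.51 in D_MgHCF against D_DXZ. TPM gave Tead2 −0.044 in DOX against Unt, −0.16 in D_DXZ against Unt and 0.072 in D_MgHCF against D_DXZ. TPM and library totals gave Amotl1 0.79 and 0.56 in D_MgHCF against DOX and 0.72 and 0.48 against D_DXZ, Amot −0.61 and −0.21 in DOX against Unt, Nf2 −1.06 and −0.66 in DOX against Unt and 0.39 and 0.15 in D_MgHCF against DOX, and Sav1 0.43 and 0.20 in D_MgHCF against DOX. TPM and quantile normalization gave Mob1a −0.40 and −0.33 in DOX against Unt and 0.088 and 0.037 in D_MgHCF against DOX, and TPM gave Stk3 0.75 there.

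Whether the replicate numbers pair the libraries was not tested. Of the 18 correlations of same-numbered libraries' deviations, 2 were over 0.1 (−0.31 to 0.31). Among 36 matches of a library to the 3 libraries of another group, 18 were best with the same number. Same-numbered libraries of DOX and D_DXZ correlated at 0.31, 0.03 and 0.22, and those of D_DXZ and D_MgHCF at −0.31, 0.04 and −0.10. With the replicate number as a block, 5 members were called in DOX against Unt and 8 in D_MgHCF against DOX. The block ended the calls of Wwtr1 in DOX against Unt (limma adjusted p = 0.0566) and Taok3 in D_MgHCF against Unt (0.0642). It added Amotl1 in D_MgHCF against D_DXZ (0.0492) and Vgll4 in D_MgHCF against Unt (0.0334), and changed no other call of a member or of a list gene named for that comparison. Vgll4 was called higher in D_MgHCF than in Unt in 6 of the 11 other settings, the block among them. The other regulators called numbered 27 in DOX against Unt and 19 in D_MgHCF against Unt, against 28 and 20 in the main fit.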

Other observations

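The genes around Lats1 were looked at after its listing at 0 was seen. Within 300.0 kb of Lats1 on chromosome 10 the table lists 10 protein-coding genes with Lats1 included. A run of 5 neighbouring genes was at or near 0 in all 12 libraries: Lrp11 and Lats1 were listed at 0 throughout, and the highest values in any library were 0.0323 FPKM for Pcmt1, 0.0163 FPKM for Nup43 and 0.0217 FPKM for Katna1. Nup43 encodes a component of the nuclear pore, Pcmt1 a protein repair methyltransferase and Katna1 the catalytic subunit of the microtubule-severing protein katanin. The genes on both sides of the run had reads in every library, with Ulbp1 at 1.08 to 6.24 FPKM, Ginm1 at 1.45 to 4.32 FPKM and Ppil4 at 2.32 to 7.75 FPKM. Of all 22058 protein-coding genes in the table, 3762 (17.1%) were listed at 0 in every library. The cause of the run was not tested.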
